A study of Mus musculus with 4 samples.

Results

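The transferases of phase II metabolism were followed in the liver of 4 ABCA1-transgenic mice. Members were all genes of the array whose symbol names a glutathione transferase (Gst or Mgst), a UDP-glucuronosyltransferase (Ugt), a sulfotransferase (Sult) or an N-acetyltransferase (Nat1, Nat2 or Nat8). The search found 57 probe sets with 1 symbol each, which cover 44 of the 12393 genes measured. The probe set with the highest mean stood for its gene. By symbol, 21 of the 44 genes were grouped as glutathione, 9 as glucuronide, 11 as sulfate and 3 as acetyl transferases. The glucuronide group holds all Ugt genes, also Ugt3a1 and Ugt8a, which transfer other sugars. For all 44 the symbol of the annotation matched the RefSeq symbol of its Entrez identifier.

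All 4 livers came from male C57BL/6 mice of 5 to 6 months that carried extra ABCA1, the cholesterol and phospholipid exporter, and ate the NIH36 diet. The labels also name an LDL receptor +/- background for the study, and they give neither the promoter nor the species of the transgene. The samples are labelled as biological replicates and are called mouse 1 to mouse 4 after the number in each title. Whether further tissue was pooled is not given, so the spread below may include technical spread. The series design compares transgenic with wild-type mice, but wild-type arrays were not analysed here. The data therefore show how conjugation genes vary among transgenic livers and not what ABCA1 does to them.

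Phase II enzymes attach a polar group to drugs, steroids, bilirubin and reactive products of metabolism. Glutathione transferases use glutathione to trap electrophiles, most Ugt enzymes use UDP-glucuronic acid, Sult enzymes use the sulfate donor PAPS, and Nat enzymes use acetyl-CoA. The liver is the main site of these reactions. Several of the genes are known targets of the sensors NRF2, CAR, PXR and the Ah receptor, and some differ between male and female mouse liver through growth hormone.

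The liver label held on the arrays. Alb, the gene of albumin, measured 15.86, 16.06, 15.94 and 15.97 log2 in mice 1 to 4, and Ttr, the gene of transthyretin, measured 15.34 to 15.72. Median signals over all probe sets ran from 267 to 305. Mouse 1 stood apart in tissue markers. The summed signal of 10 skeletal muscle markers was 9.92 log2 there and 12.83 to 13.27 in the others, and that of 6 bile duct markers was 8.70 against 10.01 to 10.29. The 18S control signal was 9.95 in mouse 1 against 8.75 to 8.98. In mouse 2, 9 exocrine pancreas markers summed to 12.59 against 10.20 to 11.19. The summed signal of 9 macrophage markers was higher in mice 3 and 4, at 15.32 and 15.25, than in mice 1 and 2, at 15.00 and 14.97. The summed signal of 7 hepatocyte markers was 18.25, 18.41, 18.21 and 18.30 log2 in mice 1 to 4, and 0 of the 7 were higher in mouse 3 than in the mean of the others. The part of these marker differences in the values below was not tested. Lower signal from fewer cells of a type and from less RNA per cell cannot be told apart in whole liver.

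Upstream sequences are shown for 4 genes with a mean log2 of at least 8 in which mouse 3 stood apart, chosen after their values were seen. Ugt2b38 and Sult5a1 were highest in that mouse, and Gsta2 and Sult1d1 were lowest. Gstm4 and Nat8, not shown, differed in mouse 3 by 0.70 and 0.64 log2, more than the -0.62 of Sult1d1. Each sequence is the 250 bases before the gene's start in RefSeq, build GRCm38.p6, 5′ to 3′ on the gene's strand. The 4 windows are Ugt2b38 at chr5:87424204-87424453 (minus strand), Sult5a1 at chr8:123158281-123158530 (minus strand), Gsta2 at chr9:78347146-78347395 (minus strand) and Sult1d1 at chr5:87569007-87569256 (minus strand). Capitals mark matches to any of the 5 motifs searched, on either strand.
Ugt2b38: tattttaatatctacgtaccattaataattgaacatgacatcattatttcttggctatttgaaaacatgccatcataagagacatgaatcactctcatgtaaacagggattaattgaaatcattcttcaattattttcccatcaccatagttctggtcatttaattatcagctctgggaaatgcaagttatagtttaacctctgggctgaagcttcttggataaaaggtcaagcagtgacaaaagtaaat
Sult5a1: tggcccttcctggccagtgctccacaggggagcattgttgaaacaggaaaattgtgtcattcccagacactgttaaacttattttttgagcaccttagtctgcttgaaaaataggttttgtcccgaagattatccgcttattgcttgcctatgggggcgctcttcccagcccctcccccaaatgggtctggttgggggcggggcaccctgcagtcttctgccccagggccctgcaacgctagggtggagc
Gsta2: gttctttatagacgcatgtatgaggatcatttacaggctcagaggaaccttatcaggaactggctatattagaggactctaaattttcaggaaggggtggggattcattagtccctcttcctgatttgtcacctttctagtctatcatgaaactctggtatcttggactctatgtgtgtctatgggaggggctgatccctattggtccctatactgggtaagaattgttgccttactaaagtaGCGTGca
Sult1d1: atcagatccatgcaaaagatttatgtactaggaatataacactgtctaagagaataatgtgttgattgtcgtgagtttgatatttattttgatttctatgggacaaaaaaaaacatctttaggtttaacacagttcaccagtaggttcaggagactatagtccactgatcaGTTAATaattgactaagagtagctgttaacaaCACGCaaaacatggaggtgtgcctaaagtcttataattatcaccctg

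The motifs were the antioxidant response element core TGACNNNGC, the Ah receptor core GCGTG, the HNF1 core GTTAAT, the STAT form TTCNNNGAA and the C/EBP form TTGCNNAA. Of these the Gsta2 window held 1 GCGTG, and the Sult1d1 window held 1 GTTAAT and 1 GCGTG on the opposite strand. The Ugt2b38 and Sult5a1 windows held none of the 5. Windows were at hand for 37 of the 44 genes, 48 windows in all. The antioxidant core stood in 4 of them (8.33%), those of Gsta3, Gstm5, Gstm7 and Mgst1, and in 10.2% of all 32851 windows. GCGTG stood in 22.9% of member windows and 28.2% of all. GTTAAT stood in 6 member windows (12.5%), of Gsta3, Nat8, Sult1a1, Sult1d1, Ugt2a3 and Ugt3a1, and in 6.43% of all. TTCNNNGAA stood in 4.17% against 7.02%, and TTGCNNAA in 12.5% against 9.56%. These are letter matches in short windows and not binding sites.

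Most conjugation genes measured nearly alike in the 4 livers. In 28 of 44 the highest and lowest mouse differed by less than 1.5-fold, and in 8 by more than 2-fold. Over all genes these shares were 49.5% and 27.0%, against 63.6% and 18.2% of members. Spread depends on level: 34 members had a mean log2 signal of at least 8, with a median SD of 0.19, and 10 lay lower, with a median SD of 0.95. For all genes the medians in those ranges were 0.19 and 0.53. Of the 8 members that spanned more than 2-fold, 7 were among the 10 low ones. At a mean log2 of at least 8, 76.5% of members and 71.9% of all genes stayed under 1.5-fold. There 2.94% and 5.58% spanned more than 2-fold. At lower means 20% of members and 16.4% of all genes stayed under 1.5-fold, and 70% and 58.8% spanned more than 2-fold.

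**Figure D1:**
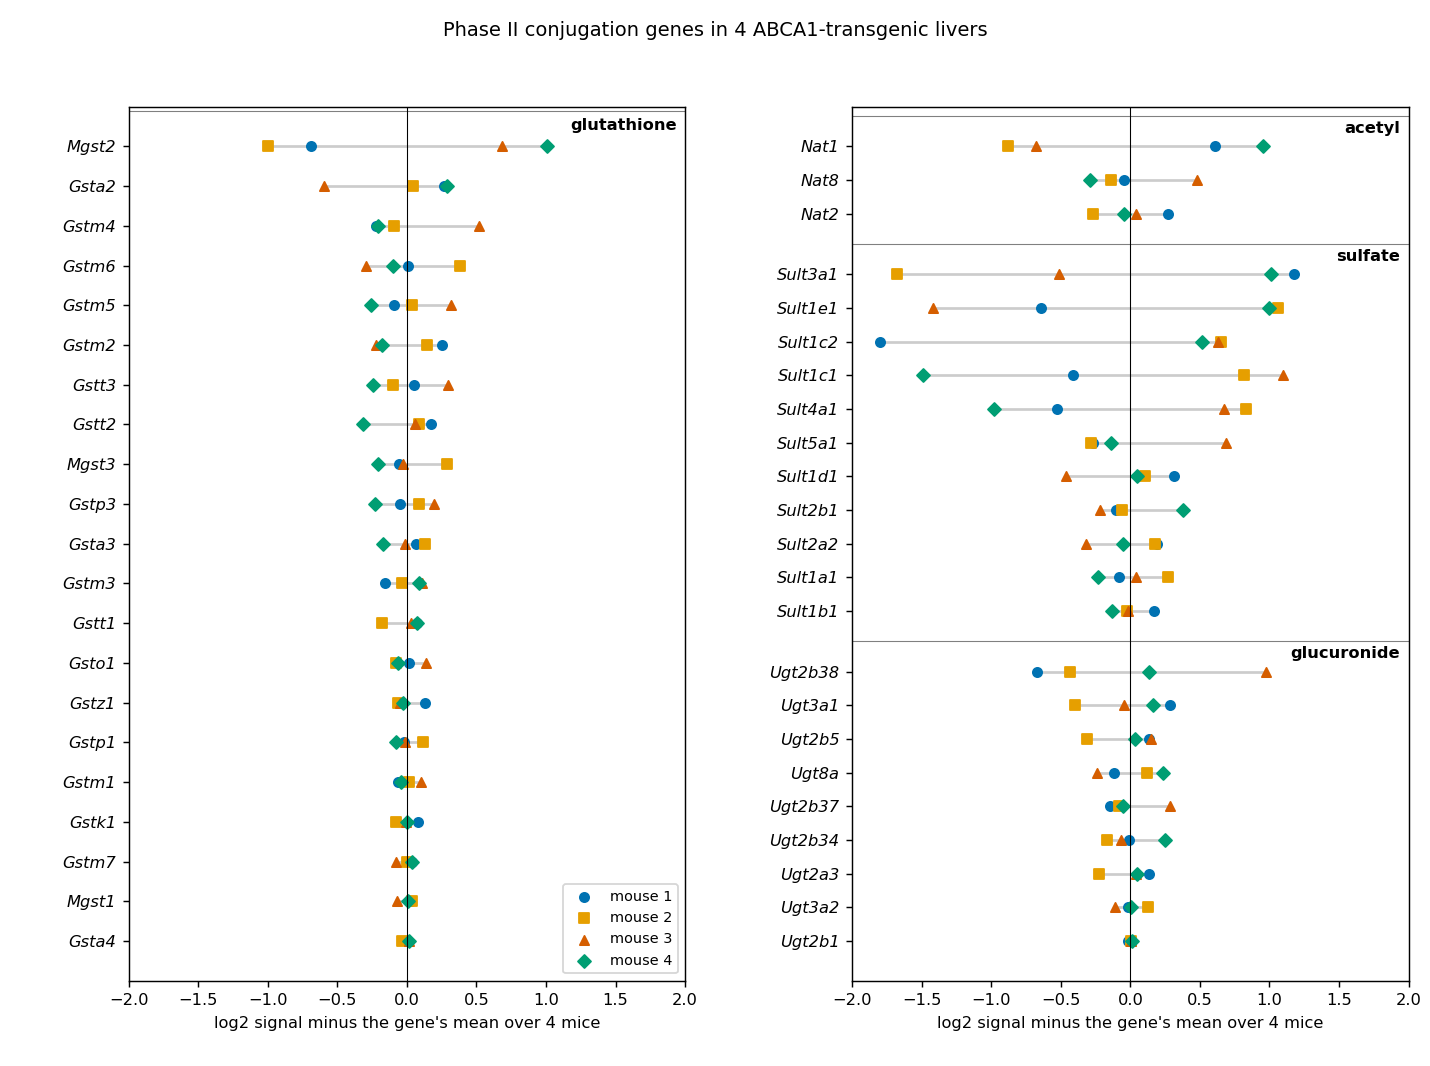
Log2 signal of each of the 44 genes in mice 1 to 4, as the difference from that gene's mean, with a grey line from the lowest to the highest mouse; genes are sorted by SD within each class. Most glutathione and glucuronide genes lie close to 0, while Mgst2, Nat1 and the sulfotransferases Sult3a1, Sult1e1, Sult1c2, Sult1c1 and Sult4a1 span the widest ranges.

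With 1 group of mice, the data allow a test of spread. Each gene's variance was compared with the variance usual at its signal level (limma), and 0 of the 44 members passed after adjustment over all probe sets. All had an adjusted p of 0.977 or more. The background was also empty, with 0% of 22626 probe sets past this threshold. At an unadjusted p under 0.05 there were 3 members, Ugt2b38, Sult1c2 and Gsta2 (6.82%), where 3.71% of all probe sets lay. The median ratio of SD to prior SD, called relative spread here, was 1.09 over members and 0.96 over all genes. By class it was 0.81 for glutathione, 1.09 for glucuronide, 1.57 for sulfate and 1.99 for acetyl transferases, the last from 3 genes. With 4 arrays the 95% limits of an SD are 0.57 and 3.73 times the estimate, so single genes are ordered only loosely.

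**Figure D2:**
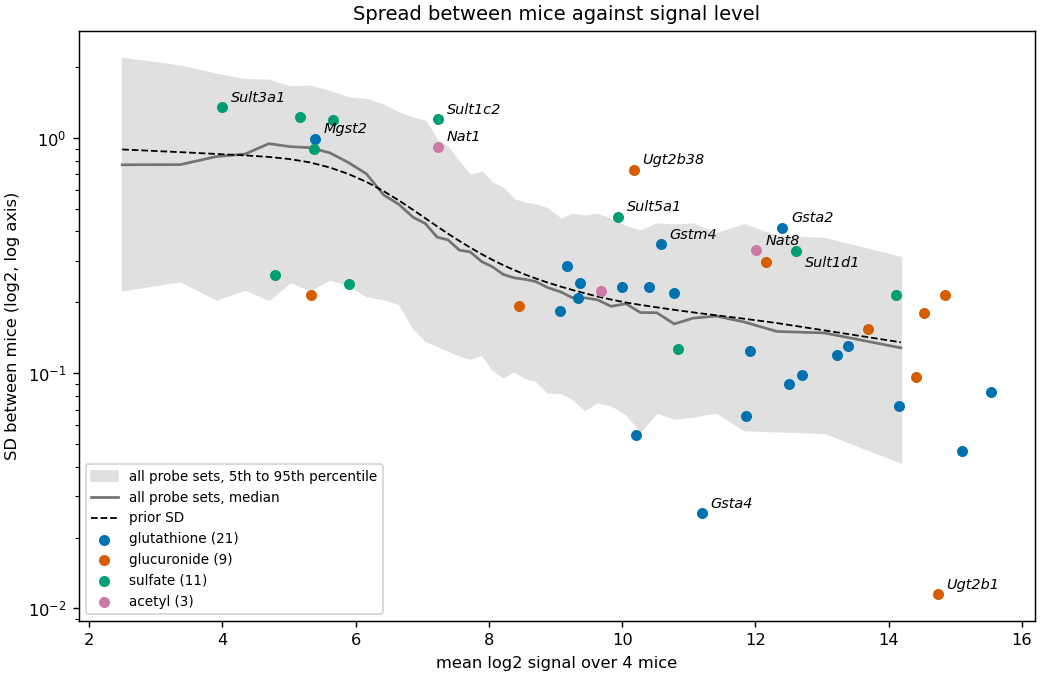
SD between the 4 mice (log axis) against mean log2 signal; points are the 44 conjugation genes by class, the grey band and line are the 5th to 95th percentile and the median of all probe sets in 40 bins of level, and the dashed line is the prior SD. Ugt2b38, Gsta2 and Sult1c2 lie furthest above the line for their level, and Ugt2b1 and Gsta4 have the smallest SDs of the 44.

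Glutathione transferases had the smallest median SD of the 4 classes. It was 0.13 log2. On the probe set that stood for each, 17 of 21 genes (81.0%) stayed within 1.5-fold across the mice. Of the 21 genes 20 had a mean log2 of at least 8, where 71.9% of all genes stayed within 1.5-fold. Other probe sets of Gstm3, Mgst3, Gstm7 and Gsto1 spanned 5.11-fold, 9.91-fold, 1.77-fold and 1.59-fold. Their mean log2 signals were 7.93, 4.94, 8.48 and 12.57. The other probe sets of Gsta3, Mgst1 and Gstm1 spanned 1.46-fold or less. Gstp1, the pi class enzyme that is abundant in male mouse liver, gave signals of 46959, 51618, 47120 and 45026 in mice 1 to 4, or 15.54 ± 0.08 log2 (SD, n = 4). Mgst1, a membrane-bound transferase of the endoplasmic reticulum and mitochondria, measured 15.13, 15.14, 15.04 and 15.12 log2. Gsta4, which conjugates the lipid peroxidation product 4-hydroxynonenal, measured 11.20, 11.16, 11.21 and 11.21 and had the smallest SD of the class, 0.03. On the probe sets given, these 3 genes showed no mouse more than 1.15-fold from another.

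Gsta2, an alpha class enzyme and a classic NRF2 target, was the widest well measured glutathione gene. It measured 12.67, 12.44, 11.80 and 12.69 log2 in mice 1 to 4, or 12.40 ± 0.41 (SD, n = 4). Mouse 3 alone was low, at 0.58 times the level of the others. The SD was 0.14 without mouse 3 and 0.45 to 0.51 without any other mouse. A second probe set, shared by Gsta1, Gsta2 and Gm3776, was therefore not counted for Gsta2. It measured 11.42, 11.59, 11.14 and 11.32. Mouse 3 was lowest there too, at 0.81 times the others, but mouse 2 was highest and mouse 4 next to lowest. Gsta3, also of the alpha class, measured 13.46, 13.52, 13.38 and 13.22, lowest in mouse 4 and highest in mouse 2. Its other probe set disagreed, at 13.53, 13.21, 13.23 and 13.30, lowest in mouse 2 and highest in mouse 1.

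The mu class genes Gstm1 to Gstm7 are neighbours on 1 chromosome in RefSeq GRCm38.p6, and they did not order the mice alike. Gstm4 measured 10.36, 10.48, 11.10 and 10.37 log2 in mice 1 to 4, with mouse 3 at 1.62 times the others, and its SD of 0.35 became 0.07 without mouse 3. Gstm5 was also highest in mouse 3, at 9.27, 9.41, 9.68 and 9.11. Gstm6 ran the other way, at 9.18, 9.56, 8.88 and 9.08, with mouse 2 highest and mouse 3 lowest. Gstm2 measured 10.25, 10.14, 9.78 and 9.82. Of the 7 genes 4 were highest (57.1%) and 3 lowest (42.9%) in mouse 3, against 33.5% and 20.4% of all genes. On the probe sets that stood for them, Gstm1, the main mu class enzyme of mouse liver, and Gstm7 spanned only 1.12-fold and 1.08-fold.

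The theta genes Gstt1, Gstt2 and Gstt3, which handle small halogenated compounds, also sit side by side. Gstt1 measured 13.30, 13.05, 13.26 and 13.30 log2, with mouse 2 low, while Gstt2 (10.95, 10.86, 10.83 and 10.45) and Gstt3 (10.46, 10.31, 10.70 and 10.16) were lowest in mouse 4. Each stayed within 1.46-fold. Gsto1, Gstz1 and Gstk1, single members of the omega, zeta and kappa classes, had SDs of 0.10, 0.09 and 0.07. Gstz1 is the maleylacetoacetate isomerase of tyrosine breakdown, and Gstk1 is a mitochondrial and peroxisomal enzyme. Gstp3 measured 9.07 ± 0.18 and Mgst3 9.34 ± 0.21 (SD, n = 4). Mgst2, which can make leukotriene C4, was the single glutathione gene at a low level. It measured 4.70, 4.39, 6.07 and 6.39 log2, with mice 3 and 4 above mice 1 and 2.

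Glucuronosyltransferases held both the tightest and, by relative spread, the widest conjugation gene. Ugt2b1 gave signals of 26983, 27342, 27322 and 27499 in mice 1 to 4, a span of 1.02-fold, or 14.74 ± 0.01 log2 (SD, n = 4). Only 8 of 22626 probe sets, itself included, had an SD as small. Ugt2b38 measured 9.50, 9.73, 11.15 and 10.31 log2, signals of 724, 852, 2265 and 1266, and 10.17 ± 0.73 (SD, n = 4). Mouse 3 was 2.46 times the mean of the others and mouse 4 came next. The span was 3.13-fold, and the relative spread was 3.72 (limma, adjusted p = 0.977). Leaving out mouse 3 left an SD of 0.41, and leaving out any other mouse gave 0.71 to 0.89.

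Ugt2b enzymes glucuronidate steroids and drugs. Ugt2b37 ordered the mice as Ugt2b38 did, at 8.30, 8.36, 8.73 and 8.39 log2, and the other Ugt2 genes did not. Ugt2b5 measured 14.98, 14.53, 15.00 and 14.88 log2 and Ugt2a3 13.82, 13.47, 13.73 and 13.74, both with mouse 2 alone low. Without mouse 2 their SDs of 0.22 and 0.15 became 0.06 and 0.05. Ugt3a1, which transfers N-acetylglucosamine, measured 12.44, 11.76, 12.10 and 12.31, so mouse 2 was again lowest. Its neighbour Ugt3a2 was instead highest in mouse 2, at 14.54 against 14.31 to 14.42. Ugt8a, which makes galactosylceramide for myelin, measured 5.22, 5.46, 5.10 and 5.57, a low level with no mouse apart. In mouse 2, 3 of the 9 genes lay above the mean of the other mice and 1 was highest, and the class median there was 0.23 log2 lower, against 0.06 higher for all genes. The genes of the Ugt1a locus share their 3 probe sets and are not members. Those probe sets spanned 1.08-fold to 1.23-fold.

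Sulfotransferases divided by level. Of the 11 genes, 4 had a mean log2 of at least 8. Sult1a1, the phenol sulfotransferase, measured 14.03, 14.38, 14.15 and 13.88 log2, and Sult1b1, which acts on thyroid hormone, 11.01, 10.81, 10.82 and 10.71. Sult1d1, an enzyme for catecholamines and eicosanoids, measured 12.92, 12.71, 12.14 and 12.65, or 12.60 ± 0.33 (SD, n = 4). Mouse 3 alone was low, at 0.65 times the others, and the SD without it was 0.14. Sult5a1 ran the opposite way, at 9.67, 9.65, 10.62 and 9.80, or 9.93 ± 0.46 (SD, n = 4). Mouse 3 was 1.89 times the others, and the SD without it was 0.08.

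The 7 low sulfotransferase genes included the widest of all members. Sult1c2 measured 5.44, 7.89, 7.87 and 7.76 log2, signals of 43.4, 237, 234 and 216. Mouse 1 stood alone, 2.40 log2 below the mean of the others, and without it the SD of 1.20 became 0.07. Mouse 1 is also the liver with the low muscle and bile duct markers given above, and its RNA controls also differed. The 3′ minus 5′ signal was 4.09 log2 for Pcx against 4.71 to 4.79 in the others, and 1.67 for Gapdh against 1.94 to 2.03. The part of these in the Sult1c2 value was not tested. Sult1c1, a neighbour of Sult1c2, measured 5.24, 6.47, 6.75 and 4.16, with its lowest value in mouse 4. Sult1e1, the estrogen sulfotransferase, measured 4.53, 6.23, 3.75 and 6.17, Sult4a1, a brain form, 4.86, 6.22, 6.06 and 4.40, and Sult3a1, a form enriched in female liver, 5.17, 2.32, 3.49 and 5.01. Sult2a2, a hydroxysteroid sulfotransferase also higher in females, was steady at 6.09, 6.07, 5.58 and 5.84. Sult2b1, the cholesterol sulfotransferase, measured 4.68, 4.73, 4.57 and 5.17. These low probe sets have no detection call here, and 0 of the 7 passed the spread test (limma, adjusted p of 0.977 to 1.00).

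The 3 acetyl transferase genes each had another order of mice. Nat1 measured 7.84, 6.35, 6.55 and 8.18 log2, so mice 1 and 4 lay above mice 2 and 3, and its highest and lowest values differed by 3.56-fold. Nat2, its neighbour and the enzyme of arylamine acetylation in mouse liver, measured 9.96, 9.42, 9.72 and 9.63. Nat8, which acetylates cysteine conjugates formed from glutathione adducts, measured 11.97, 11.88, 12.49 and 11.72. Mouse 3 was 1.55 times the others for Nat8, and its SD of 0.33 became 0.12 without mouse 3. None of the 3 passed (limma, adjusted p of 0.977 to 0.979).

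For 11 members 2 or more probe sets read the same gene, which gives repeat readings on the same arrays. In 2 of the 11, Sult1d1 and Ugt3a1, all probe sets named the same highest and the same lowest mouse. The share over all genes with several probe sets is not given here, so this count is not read as a trait of members. The second Sult1d1 probe set measured 11.80, 11.61, 10.90 and 11.36 log2, so mouse 3 was lowest on both. The second Ugt3a1 probe set measured 12.11, 11.63, 11.68 and 12.01, with mouse 2 lowest and mouse 1 highest on both. For Gstm1 3 of 4 probe sets were lowest in mouse 2, but the one with the highest mean was lowest in mouse 1. For Gsto1 the probe sets disagreed, with 12.72, 12.63, 12.84 and 12.64 on 1 and 12.98, 12.31, 12.37 and 12.62 on the other. Gstm7 also had discordant readings, at 10.24, 10.21, 10.13 and 10.24 against 8.74, 7.92, 8.68 and 8.58.

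The difference that probe sets share was tested against their disagreement for all 4956 genes with 2 or more probe sets (limma). After adjustment over these, 0 of 11 members passed, where 0.383% of all did. The test separates a shared difference from noise of 1 probe set, but not animal from array. Sult1d1 came closest, with a shared SD of 0.36 log2 against a residual SD of 0.06 (limma, adjusted p = 0.091), followed by Ugt3a1 (adjusted p = 0.28). At an unadjusted p under 0.05 there were 4 of 11, Sult1d1, Ugt3a1, Ugt2b34 and Gstm1, where 9.12% of all genes lay. Ugt2b34 was highest in mouse 4 on both probe sets, at 14.36 and 14.78. Mouse 3 was lowest on the first of these (13.50) and mouse 2 on the second (14.35). The adjusted p of Sult1d1 was 0.030 with the array medians set equal, 0.019 among probe sets with a mean of at least 8, and 0.040 with signals under 64 raised to 64. It was 0.11 after quantile normalization, 0.31 without moderation of the residual variance, and 0.34 without probe sets that may bind several transcripts. The filter, the floor and the removal of those probe sets left the shared and residual SD of Sult1d1 as they were. Its unadjusted p there was 0.00032, 0.00038 and 0.00042 (limma), adjusted over 2355, 4165 and 2810 genes. Leaving out 1 mouse gave 0.43, 0.12, 0.66 and 0.13 for mice 1 to 4.

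**Figure D3:**
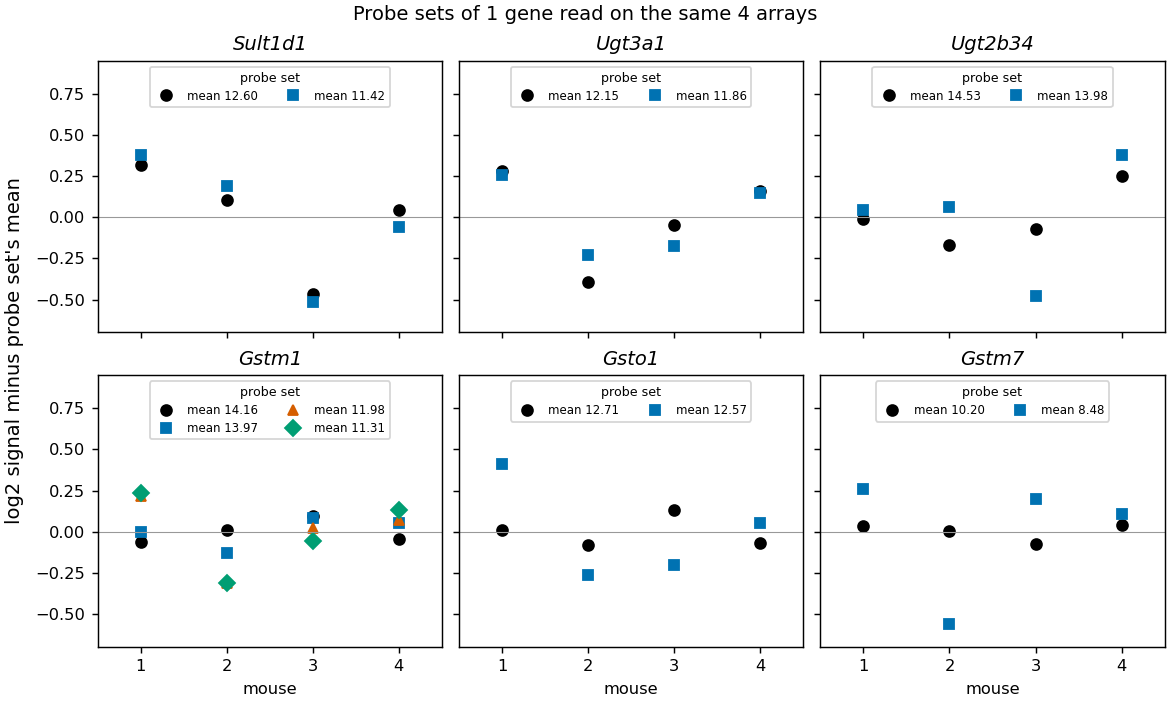
Log2 signal of every probe set of 6 genes in mice 1 to 4, as the difference from the probe set's own mean, which the legend gives. Both probe sets of Sult1d1 are lowest in mouse 3 and both of Ugt3a1 lowest in mouse 2, while those of Gsto1 and Gstm7 order the mice differently.

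Glutathione genes as a group lay close to the same level in each mouse, and the smaller classes moved more. The median of glutathione genes in a mouse minus the mean of the other 3 was 0.02, 0.02, 0.02 and -0.09 log2 in mice 1 to 4. For all genes it was -0.05, 0.06, 0.09 and -0.06. With array medians set equal, the glutathione values became 0.08, -0.08, -0.09 and 0.05, so their signs follow the scaling in mice 2, 3 and 4. That shift moved the all-gene median of mouse 4 from -0.04 to 0.06, relative to the mean of the 4 mice. Glucuronide medians were -0.02, -0.23, 0.00 and 0.06, and sulfate medians -0.14, 0.23, -0.02 and -0.07. The sulfate value of mouse 2 was 0.05 among the 4 genes with a mean of at least 8. Acetyl medians were 0.37, -0.35, 0.05 and -0.06, from 3 genes. Of all 44 members 13 were highest in mouse 3 (29.5%, against 33.5% of all genes) and 14 lowest in mouse 2 (31.8%, against 19.95%).

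**Figure D4:**
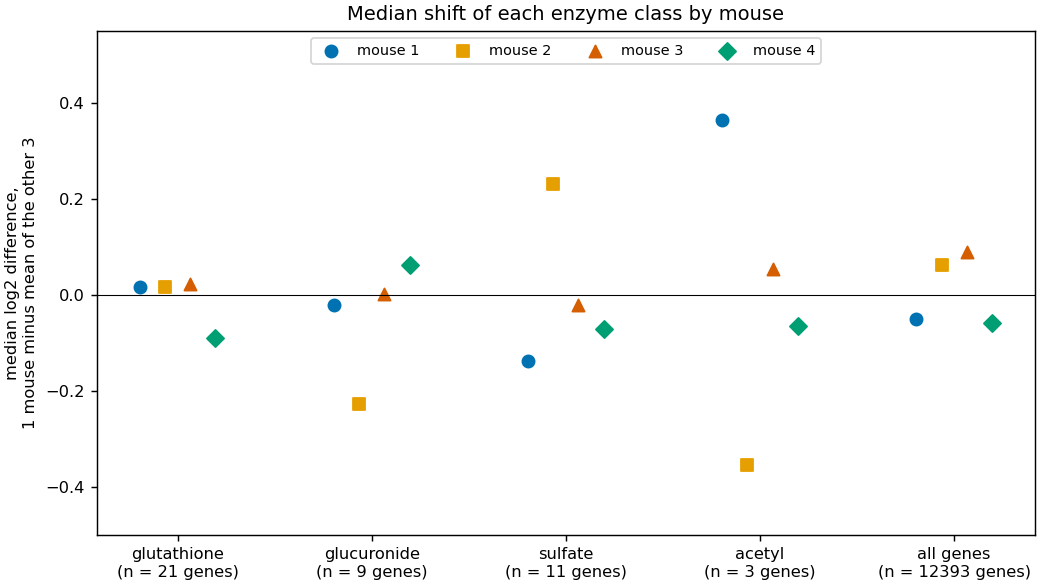
Median over the genes of each class of the log2 signal in 1 mouse minus the mean of the other 3, for mice 1 to 4, with the same for all 12393 genes. Glutathione medians lie within 0.09 of 0, and the largest values, 0.37 and -0.35, come from the 3 acetyl transferase genes.

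Genes that supply conjugation had spreads near those usual at their level. All had a mean log2 of at least 8, where the median SD of all genes was 0.19, and their median relative spread was 0.98 for donor and 0.94 for glutathione supply, against 0.96 for all genes. In the donor list, which feeds UDP-glucuronic acid and PAPS, 9 genes had a median SD of 0.18 log2. Ugdh, which makes UDP-glucuronic acid, measured 13.11 ± 0.07 (SD, n = 4), and Papss1, which makes PAPS, 9.53, 9.93, 9.28 and 9.24. Slc26a1, a sulfate carrier, measured 11.86, 11.83, 12.39 and 11.57, with mouse 3 highest. In the glutathione supply list the median SD was 0.17 over 12 genes. Gclm, the modifier subunit of glutathione synthesis, measured 12.60 ± 0.05 (SD, n = 4). Gpx4, the phospholipid peroxidase, measured 13.25, 13.17, 12.69 and 13.45, and Chac1, which degrades glutathione, 8.71, 9.29, 9.26 and 9.12.

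Other conjugating enzymes had a median SD of 0.17 over 10 genes, with Hnmt, the histamine methyltransferase, at 10.65, 9.98, 10.41 and 10.56. Acsm3 measured 12.19, 11.95, 11.66 and 12.26, and Gnmt, the glycine methyltransferase, 15.50 ± 0.09 (SD, n = 4). Deconjugating and hydrolytic enzymes had the smallest median SD of the 10 lists, 0.07 over 8 genes. Acy3 measured 10.10 ± 0.24, Ces1d 13.87 ± 0.13 and Dpep1 8.64 ± 0.04 (SD, n = 4). Exporters and uptake carriers of conjugates had a median SD of 0.23 over 12 genes. Slc22a7, an organic anion carrier, measured 12.40, 13.22, 13.36 and 12.85, and Abcc1 7.14, 7.64, 8.30 and 7.75, while Abcc3, an exporter of glucuronides, measured 12.20 ± 0.08 (SD, n = 4). In each of these 5 lists 0 genes passed the spread test over all probe sets. The probe set agreement test covered 3, 6, 3, 3 and 5 of their genes, in the order given, and 0 passed.

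A few of the sensors and their other targets showed larger differences. The median SD was 0.22 log2 over 13 sensing factors, 0.13 over 14 NRF2 targets outside the transferases and 0.24 over 9 P450 genes. Median relative spreads were 1.10, 0.73 and 1.64, against 0.96 for all genes. Nr1i3, which encodes CAR, measured 11.17, 10.98, 10.56 and 11.26 log2, Ppara 11.19, 10.67, 10.51 and 10.56, and Mafg, an NRF2 partner, 10.96 ± 0.01 (SD, n = 4). Cyp2b10, a CAR target, measured 12.30, 12.37, 10.98 and 11.77, lowest in mouse 3. Of the 9 P450 genes 3 were lowest and 2 highest in that mouse, and of the 44 members 11 were lowest there (25%, against 20.4% of all genes). Cyp2b10 passed the probe set agreement test (limma, adjusted p = 0.000625), as the 1 gene of the P450 list tested there. Cyp2b9 measured 7.28, 8.49, 7.41 and 8.32, and Cyp3a11 15.08 ± 0.05 (SD, n = 4). Among 14 NRF2 targets outside the transferases, Hmox1 measured 8.10, 8.37, 8.95 and 7.76 and Cbr3 8.62, 8.65, 8.54 and 7.71. In that list 1 of 6 genes tested passed for agreement, Pgd, at 10.67, 11.11, 11.48 and 10.87 (limma, adjusted p = 0.029). Cyp2b10 and Pgd did not pass in every alternative run, as given below with Nudt7. Of 13 sensing factors 0 passed the spread test, and of the 7 tested for agreement 0 passed.

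Sex-biased liver genes were included because several Sult, Ugt and Gst genes are sex-biased. Of the 11 male-biased genes, Moxd1 measured 11.76, 10.02, 12.11 and 8.97 and Hsd3b5 10.92, 11.96, 13.11 and 12.10 log2, and C6 12.65 ± 0.07 (SD, n = 4). Of the 4 genes of that list tested for agreement 1 passed, Nudt7 (limma, adjusted p = 0.049), at 12.85, 13.20, 13.92 and 13.58. Over all genes 19 passed for agreement, Nudt7, Cyp2b10 and Pgd among them. That number was 0 without mouse 3, without moderation of the residual variance, or without probe sets that may bind several transcripts. It was 2, 4 and 1 without mice 1, 2 and 4. Among 5 female-biased genes, Cux2 measured 6.27, 3.98, 6.53 and 3.66, Acot3 10.56, 10.32, 8.48 and 9.77, and Cyp17a1 9.48, 9.24, 8.69 and 8.86. No gene of the 10 lists passed the spread test over all probe sets. Of the 11 male-biased genes 7 were highest in mouse 3, where 33.5% of all genes were, 3 were lowest there, and 4 were lowest in mouse 1.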

How the data were processed

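The authors deposited 1 linear signal intensity per probe set and array for 4 livers. The submitters' processing notes name RMA, with no version. The deposited intensities are linear and reach 0.1, and their mean after trimming 2% at each end is 1000 on each array. The sources used here do not say how probes were combined, and they hold no detection call. RNA was amplified with RiboAmp before labelling, per the labels' protocols.

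The 64 control probe sets were left out, leaving 22626. Values were taken to log2 as deposited, without pseudocount or renormalization. Gene symbols came from the platform annotation: 20380 probe sets had 1 symbol, 691 several and 1555 none. Levels of different probe sets are not compared. Spread was tested with limma 3.58.1 in R 4.3.3, against a robust prior variance that follows level, with F p-values adjusted by Benjamini-Hochberg over all probe sets. Agreement was tested with an F ratio of the shared to the moderated residual mean square, adjusted over 4956 genes. The threshold was 0.05. Both tests were run on simulated data, which does not show how small a difference they can find in these 4 arrays. In the spread test Mb, a muscle marker, spanned 91.8-fold across the mice and did not pass (limma, adjusted p = 0.247). A gene that did not pass is therefore not shown to be alike in the mice. The number of arrays limits the precision.

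Members and lists were chosen with earlier results of these data known. The naming rule took, in the glutathione, glucuronide and sulfate classes, the 5 largest and 3 smallest SDs, all acetyl members, genes past either test, genes whose probe sets had pairwise r of at least 0.8 or all at or below 0, and per list the 2 largest and 1 smallest SD. Every member could be named in the account of its family. Other list genes named were chosen after their values were seen. Alternatives were 2 other scalings, a filter, a floor, a pseudocount, fewer probe sets, other priors, gene or list means, and leaving out each mouse. List entries without a probe set of their own were not analysed here.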

Additional observations from a re-analysis of the deposited data

Results flagged for a closer look

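In 3 of the 44 conjugation genes 1 mouse lay so far from the others that the gap to its neighbour passed the 95% limit of Dixon's test, which divides that gap by the whole range. Sult1c2 measured 5.44 log2 in mouse 1 against 7.76 to 7.89 in the others. Sult5a1 measured 10.62 in mouse 3 against 9.65 to 9.80. Gstt1 measured 13.05 in mouse 2 against 13.26 to 13.30. Chance gives such a gap in about 1 in 20 groups; it was found in 6.82% of members and in 5.91% of all genes. Among the list genes named, Cbr3 measured 7.71 in mouse 4 against 8.54 to 8.65, and Ces1d 13.69 in mouse 3 against 13.92 to 13.95. The median of the glutathione class was -0.09 in mouse 4 against 0.02 in each other mouse, a value that changed sign with the scaling of the arrays.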

How the results depend on the processing

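No paired analysis was possible because the labels give 1 group. No member passed the spread test under any alternative run. Differences below are log2, a mouse minus the mean of the others. With array medians set equal, 1 member (Sult1d1) passed for agreement, glutathione medians in mice 1 to 4 were 0.084, -0.077, -0.092 and 0.051, and the glucuronide median of mouse 4 was 0.20. With a mean log2 of at least 8, 1 of 7 members tested passed for agreement. The sulfate medians there were 0.061 in mouse 1 and 0.052 in mouse 2, from 4 genes. With signals under 64 raised to 64, 1 of 10 members tested passed. Without probe sets that may bind several transcripts, 1 of only 5 members still tested had an unadjusted agreement p under 0.05. In that run the glutathione medians were -0.048 in mouse 2 and 0.081 in mouse 3. The sulfate median was -0.29 in mouse 3, and the acetyl medians were -0.68 in mouse 2 and 0.44 in mouse 4. With 1 prior for all levels, 0 members had an unadjusted spread p under 0.05, and without moderation 2 had an unadjusted agreement p under 0.05. Averaging each gene's probe sets gave glutathione medians of 0.097, -0.048 and -0.0093 in mice 1, 2 and 4. Class means in place of medians gave 0.15 for glucuronide in mouse 3 and 0.27 for acetyl in mouse 4. The cause of these changes was not tested. Leaving out 1 mouse gave 2 to 4 members with an unadjusted spread p under 0.05 and 3 to 4 with such an agreement p. Without probe sets of mean log2 under 8, Moxd1 passed the spread test (limma, adjusted p = 0.014). No detection call is at hand for the 10 low members.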
